A study of Homo sapiens with 2 samples.

Results

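Translation initiation factors load the small ribosomal subunit with the initiator transfer RNA, bring it to the capped end of a messenger RNA and release it at the start codon. The genes that encode them and their direct regulators carry the symbols EIF1 to EIF6. Their promoters were examined in a map of Flag-tagged ZFP64, a zinc finger transcription factor, in liver cancer cells. Members were taken by symbol from the deposited list of peaks and from the RefSeq gene table. The table holds 56 protein-coding genes with such a symbol, 55 of them on chromosomes 1 to 22 and X. Of the 55, 18 had a peak assigned to them and 15 had that peak at a promoter, meaning within 3 kb of an annotated transcription start. Each of the 18 had exactly 1 of the 6373 peaks, while 17.9% of all protein-coding genes with a peak had more than 1.

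Chromatin came from PLC/PRF/5, an established human hepatocellular carcinoma cell line, infected with a lentivirus for ZFP64 overexpression. The Flag ChIP library, made with an antibody against the Flag tag, was set against an input library of the same overexpressing cells that was sequenced without precipitation. There was 1 library of each kind and no replicate. No ChIP from cells without the tag was used here, so signal of the antibody that does not come from ZFP64 cannot be told apart from ZFP64 binding. The values below are therefore descriptions, and no difference was tested.

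Initiation proceeds by complexes. eIF2 with GTP carries the initiator transfer RNA, eIF2B reloads eIF2 with GTP, and 4 kinases switch eIF2 off under stress. eIF3 holds the small subunit, eIF4F (cap-binding eIF4E, scaffold eIF4G and helicase eIF4A) recruits the messenger RNA, and eIF5 and eIF5B complete the joining of the large subunit.

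Windows of 300 bases around 6 starts are shown. Those of EIF4E2, EIF5, EIF4A2 and EIF4G1 are the 4 family windows that held a summit, and EIF3D and EIF2AK4 had the highest folds among promoter peaks assigned to the family. They are RefSeq promoter sequences of the GRCh38.p14 build, from 250 bases before to 50 bases after a start, read 5′ to 3′ on the strand of the gene. EIF4E2 lies at chr2:232550439-232550738 (plus strand), EIF3D at chr22:36529117-36529416 (minus), EIF2AK4 at chr15:39933865-39934164 (plus), EIF5 at chr14:103334638-103334937 (plus), EIF4A2 at chr3:186783327-186783626 (plus) and EIF4G1 at chr3:184314914-184315213 (plus). Capitals mark GGGCGG or its complement CCGCCC, the box read by SP and KLF factors, and the palindrome CCCGGG, with overlapping matches run together.

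EIF4E2: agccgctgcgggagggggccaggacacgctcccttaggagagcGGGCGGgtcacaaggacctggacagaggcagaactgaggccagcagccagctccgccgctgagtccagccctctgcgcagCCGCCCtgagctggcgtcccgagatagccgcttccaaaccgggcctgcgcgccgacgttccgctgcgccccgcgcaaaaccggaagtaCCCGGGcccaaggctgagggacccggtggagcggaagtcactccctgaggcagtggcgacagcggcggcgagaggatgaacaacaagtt

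EIF3D: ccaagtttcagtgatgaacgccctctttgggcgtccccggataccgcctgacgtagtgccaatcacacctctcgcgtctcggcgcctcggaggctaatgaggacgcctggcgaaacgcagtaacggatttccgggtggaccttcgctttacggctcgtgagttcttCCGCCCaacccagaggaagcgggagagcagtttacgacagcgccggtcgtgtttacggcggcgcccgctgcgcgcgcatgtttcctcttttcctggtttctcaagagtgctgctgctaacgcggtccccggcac

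EIF2AK4: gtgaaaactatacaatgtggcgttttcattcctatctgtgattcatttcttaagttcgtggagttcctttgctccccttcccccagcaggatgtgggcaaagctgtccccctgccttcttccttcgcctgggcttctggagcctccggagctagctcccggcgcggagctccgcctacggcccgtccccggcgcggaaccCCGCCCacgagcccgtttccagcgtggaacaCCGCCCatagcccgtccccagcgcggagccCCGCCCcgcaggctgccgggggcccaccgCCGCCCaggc

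EIF5: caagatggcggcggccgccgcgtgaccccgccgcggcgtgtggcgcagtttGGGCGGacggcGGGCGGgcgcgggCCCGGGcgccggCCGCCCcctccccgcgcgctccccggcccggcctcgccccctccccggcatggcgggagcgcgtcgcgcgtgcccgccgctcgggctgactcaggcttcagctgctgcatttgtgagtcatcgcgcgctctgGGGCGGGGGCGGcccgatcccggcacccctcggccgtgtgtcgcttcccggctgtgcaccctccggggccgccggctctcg

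EIF4A2: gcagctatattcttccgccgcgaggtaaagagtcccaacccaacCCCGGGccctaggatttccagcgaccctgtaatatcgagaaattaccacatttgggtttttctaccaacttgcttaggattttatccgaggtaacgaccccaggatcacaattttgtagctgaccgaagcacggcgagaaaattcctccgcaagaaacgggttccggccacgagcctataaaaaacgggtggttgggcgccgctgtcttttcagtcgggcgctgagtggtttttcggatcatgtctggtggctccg

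EIF4G1: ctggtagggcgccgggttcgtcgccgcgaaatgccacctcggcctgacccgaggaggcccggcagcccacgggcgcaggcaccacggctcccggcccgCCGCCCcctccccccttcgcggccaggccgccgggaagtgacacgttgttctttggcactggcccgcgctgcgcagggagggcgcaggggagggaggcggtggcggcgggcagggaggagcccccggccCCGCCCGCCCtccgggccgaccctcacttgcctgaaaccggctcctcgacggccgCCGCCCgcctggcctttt

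The EIF4E2 window held a summit 24 bp after the start, the EIF5 window one 28 bp after it, the EIF4A2 window one 173 bp before it and the EIF4G1 window one 172 bp before it. The summits of EIF3D and EIF2AK4 lay 212 bp and 243 bp after the RefSeq start, past the end of their windows, whose last 118 and 107 bases were under the peak. CCCGGG stood once in the EIF4E2, EIF5 and EIF4A2 windows and was not in the other 3.

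A promoter peak was assigned to 15 of the 55 initiation factor genes (27.3%), beside 20.3% of the 19974 protein-coding genes on the same chromosomes. The peaks were mostly low. Their median fold was 4.72 (quartiles 4.31 to 6.74, range 3.48 to 15.4), beside a median of 6.98 (5.05 to 11.7) over all 4905 promoter peaks. The fold is the value the authors deposited for each summit, ChIP divided by expected background. Of the 15 peaks, 3 lay above the median fold of all promoter peaks and 12 below. Folds of 5 or more were seen at 7 of the 15, beside 75.6% of all promoter peaks, and folds of 10 or more at 2, beside 31.5%.

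Counted only with a fold of at least 5, 7 of the 55 genes (12.7%) had a promoter peak, beside 15.8% of protein-coding genes. With a −log10 q of at least 10, 5 of 55 (9.09%) remained, beside 11.6%. The family's share stood above the share of all genes when every deposited peak counted and below it when only stronger peaks did. Those counts are small, and the differences were not tested. Start peaks assigned to another gene, such as that of fold 23.6 at EIF4E2, are not in them.

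**Figure D1:**
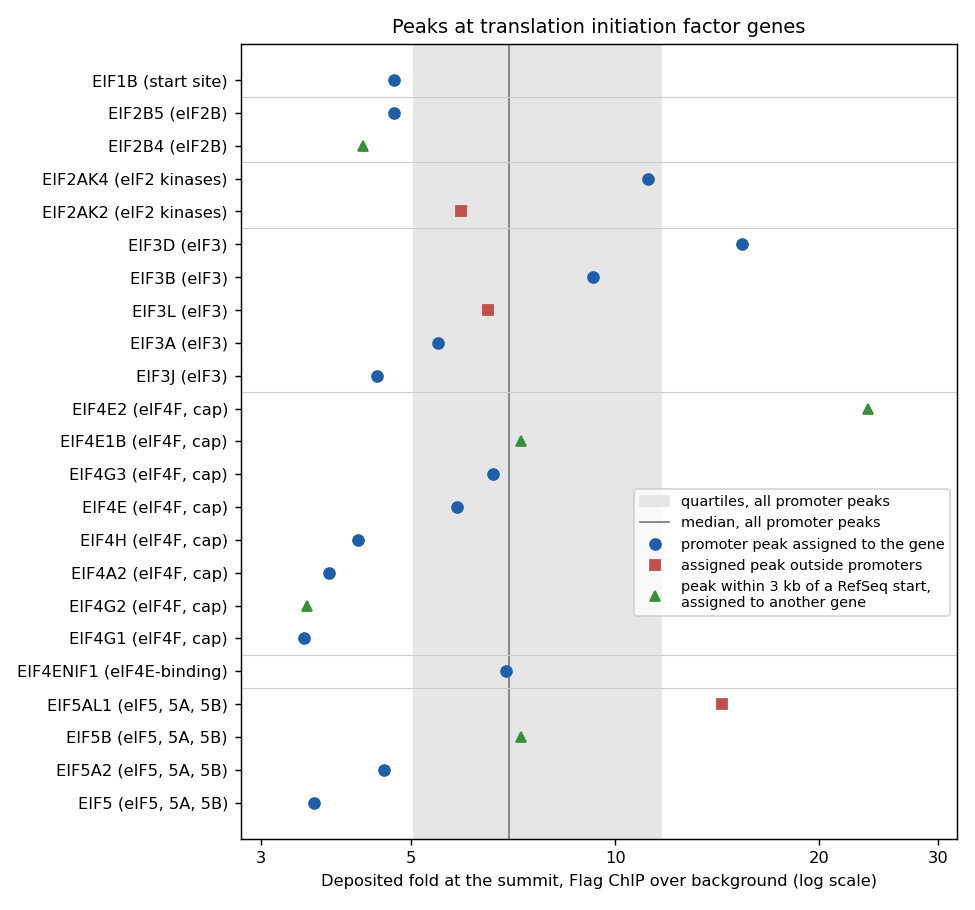
Deposited fold at the summit (log scale) of each peak at an initiation factor gene, ordered by complex. The grey band spans the quartiles of all promoter peaks, 5.05 to 11.7. The highest value, 23.6 at EIF4E2, belongs to a peak that the deposited table assigned to MIR5001, and the promoter peaks assigned to the family run from 3.48 at EIF4G1 to 15.4 at EIF3D.

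No gene for eIF2 itself or for a related tRNA carrier had a peak. EIF2S1, EIF2S2 and EIF2S3 encode its 3 subunits, and with EIF2S3B, EIF2A and EIF2D they made 0 of 6, beside 23.4% of protein-coding genes with any assigned peak, and a group of 6 is too small to be told apart from that share. The distance from either end of each gene to the nearest peak ran from 5018 bp at EIF2S3B to 146003 bp at EIF2S1. Within 11334 bp of EIF2D lay a peak of fold 50.8, assigned to RASSF5.

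In the exchange factor eIF2B, 1 of 5 genes had a promoter peak, beside 20.3% of protein-coding genes. It was EIF2B5, which encodes the catalytic epsilon subunit. The peak, at chr3:184134839-184135230 (hg38), reached a fold of 4.71 (q-value 3.12e-05). From the deposited fold and p-value, 13 ChIP fragments (exact Poisson 95% interval 6.92 to 22.2) were recovered at its summit over a background of 1.97. EIF2B1, EIF2B2, EIF2B3 and EIF2B4 had none assigned. Fragment counts here and below were solved from the peak caller's model, and their intervals cover counting error only.

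Of the 4 genes for kinases of eIF2, 1 had a promoter peak, beside 20.3% of protein-coding genes. It was EIF2AK4. It encodes GCN2, the sensor of amino acid shortage that responds to uncharged transfer RNA. Its peak, at chr15:39934058-39934624, had the second highest fold of the promoter peaks assigned to the family, 11.2, with a q-value of 5.97e-34. It held 46 fragments (33.7 to 61.4) over a background of 3.20, the largest count of those 15 peaks. By fold it ranked 1298 of 4905 promoter peaks.

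EIF2AK2, which encodes PKR, the sensor of double-stranded RNA, had 1 assigned peak, 11134 bp upstream of its annotated start. It lay inside the neighbouring gene SULT6B1, in an intron per the deposited annotation, with a fold of 5.93 and 18 fragments (10.7 to 28.4) over 2.21. EIF2AK1, the haem-regulated kinase, and EIF2AK3, the endoplasmic reticulum stress kinase PERK, had no peak.

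eIF3, the largest initiation complex, had promoter peaks at 4 of 14 genes, beside 20.3% of protein-coding genes. EIF3D encodes a subunit that can bind the cap of some messenger RNAs by itself. Its peak, at chr22:36528676-36529234, reached 15.4, the highest fold among promoter peaks assigned to the family (q-value 6.69e-36). It held 37 fragments (26.1 to 51.0) over 1.47, the lowest background of the whole list. That background is a floor shared by many other promoter peaks, and the fold of the EIF3D peak rests on it. It ranked 855 of 4905 promoter peaks, so that 82.5% of them had a lower fold.

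EIF3B, a core scaffold subunit, had a peak at chr7:2354967-2355676 with a fold of 9.27 and 24 fragments (15.4 to 35.7) over 1.70. EIF3A, the other main scaffold, had one at chr10:119080045-119080817 with a fold of 5.47 and 26 fragments (17.0 to 38.1) over 3.94. The counts of EIF3A and EIF3B were close, and their backgrounds differed. EIF3J, the loosely attached subunit, had a fold of 4.46 with 21 fragments (13.0 to 32.1), also over 3.94.

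EIF3L had a peak outside promoters, 5586 bp beyond the end of the gene in the RefSeq table. Its fold was 6.49, with 17 fragments (9.90 to 27.2) over 1.77, and the deposited table placed it in the exon of an unnamed transcript. EIF3C, EIF3CL, EIF3E, EIF3F, EIF3G, EIF3H, EIF3I, EIF3K and EIF3M had no peak. EIF3C and EIF3CL are near-identical copies, to which reads may not be placed uniquely. The nearest peak to these 9 genes was 10065 bp from EIF3K, assigned to ACTN4.

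**Figure D2:**
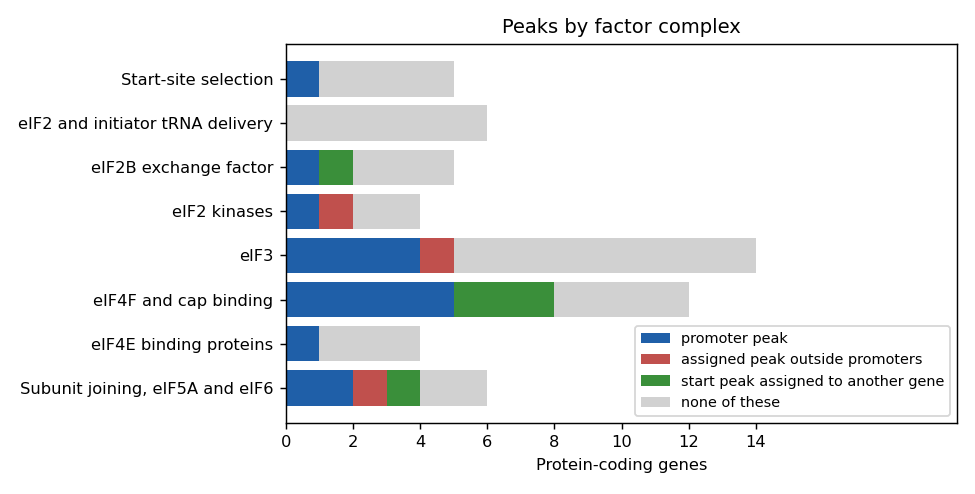
Number of protein-coding genes (horizontal axis) in each factor complex by the kind of peak found. Promoter peaks assigned to the gene were found at 5 of 12 genes of the eIF4F group, 4 of 14 of eIF3 and 0 of 6 of the eIF2 group. Over all protein-coding genes the share was 20.3%. The start-site selection group includes EIF1AY, and the eIF4F group includes related genes outside that complex.

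The eIF4F group here takes in related EIF4 genes, such as EIF4H and EIF4G2, and not all its members are subunits of eIF4F. It had the most promoter peaks, 5 of 12 genes, beside 20.3% of protein-coding genes. They were low, between 3.48 and 6.59 in fold. Groups of 4 to 14 genes are too small to be ranked by such counts, and no difference from that share was tested. EIF4G3, a scaffold paralogue, had a fold of 6.59 with 17 fragments (9.90 to 27.2) over 1.73. EIF4E, which encodes the cap-binding protein, had a fold of 5.85, also with 17 fragments, over 2.08. EIF4H, a cofactor of the helicase, had a fold of 4.17 with 11 fragments (5.49 to 19.7) over 1.88. These intervals overlap one another, and whether the 3 peaks differ in strength was not tested.

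EIF4A2, a helicase gene, had a fold of 3.79 with 9 fragments (4.12 to 17.1) over 1.64, the fewest in the family. EIF4G1, the main scaffold gene, had the lowest fold, 3.48, with 10 fragments (4.80 to 18.4) over 2.16. No other family peak had a higher q-value (0.0133), and 2.14% of promoter peaks had a lower fold. EIF4A1, EIF4A3, EIF4B, EIF4E3, EIF4E1B, EIF4E2 and EIF4G2 had no assigned peak.

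Of the 4 genes for proteins that bind eIF4E, 1 had a promoter peak, beside 20.3% of protein-coding genes. It was EIF4ENIF1. It encodes 4E-T, which carries eIF4E into the nucleus and to silenced messenger RNA. Its fold was 6.90, with 24 fragments (15.4 to 35.7) over 2.62. EIF4EBP1, EIF4EBP2 and EIF4EBP3, which encode the inhibitors controlled by mTOR, had no peak.

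In start-site selection, 1 of 5 genes had a promoter peak, beside 20.3% of protein-coding genes. It was EIF1B, and EIF1, EIF1AX, EIF1AD and EIF1AY had none. EIF1B is a paralogue of EIF1, the factor that guards start codon choice. Its peak had a fold of 4.72, with 13 fragments (6.92 to 22.2) over 1.97. EIF1AY lies on chromosome Y, on which the list held 0 peaks, and is not among the 55.

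Among the late-acting factors, 2 of 6 genes had promoter peaks, EIF5 and EIF5A2, beside 20.3% of protein-coding genes. EIF5A, EIF5B and EIF6 had no assigned peak. EIF5, which triggers GTP hydrolysis by eIF2, had a fold of 3.60 with 11 fragments (5.49 to 19.7) over 2.34. EIF5A2, a paralogue of EIF5A, whose product helps the ribosome past difficult peptide bonds, had a fold of 4.56. It held 23 fragments (14.6 to 34.5) over 4.27, the highest background of the 15. EIF5AL1, an EIF5A-like gene, had a peak of fold 14.4 that lay 24742 bp upstream of its start, in an intergenic region. It held 37 fragments (26.1 to 51.0) over 1.64. TPRX1P1, a pseudogene 11229 bp away, and LOC729815 lay nearer to it than EIF5AL1 in the RefSeq table.

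Some paralogues differed in whether a promoter peak was assigned: EIF1B and not EIF1, EIF5A2 and not EIF5A, EIF4A2 and not EIF4A1. Because a gene without a listed peak can still have signal under the calling threshold, a difference between paralogues is not shown.

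The deposited table names 1 gene for each peak, so a start shared with another gene can be missed. RefSeq starts were known for 46 of the 55 genes. Of the genes with no promoter peak of their own, 5 had a peak within 3 kb of such a start that was assigned to another gene. With these, 19 of 46 genes (41.3%) had a peak near a start, beside 24.0% of the 15813 protein-coding genes with a known start. This rule was chosen after the data were seen. Of the family genes it leaves out, only EIF3A had a promoter peak. Over all 55 genes, 20 (36.4%) had a peak within 3 kb of either gene end, beside 23.7% of protein-coding genes.

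The strongest peak at any start of the family was assigned to another gene. EIF4E2 encodes 4EHP, a cap-binding relative of eIF4E that represses translation. A peak at chr2:232550373-232551098 covered its start and reached a fold of 23.6 (q-value 7.54e-77). It held 69 fragments (53.7 to 87.3) over 1.97 and ranked 456 of 4905 promoter peaks, so that 90.7% had a lower fold. The deposited table assigned it to MIR5001, a microRNA gene at chr2:232550474-232550573 on the opposite strand. The summit lay 24 bp after the EIF4E2 start and 140 bp before the MIR5001 start.

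The other 4 lay upstream of a family start and nearer to a neighbour. A peak assigned to SNCB, with a fold of 7.27 and 22 fragments (13.8 to 33.3), had its summit 529 bp before the EIF4E1B start. One assigned to TXNDC9, with the same fold and count, had its summit 1393 bp before the start of EIF5B, the GTPase that joins the subunits. A peak of fold 4.25 assigned to SNX17 had its summit 526 bp before the start of EIF2B4. One with 14 fragments (7.65 to 23.5) assigned to LOC101928053 had its summit 466 bp before the start of EIF4G2, whose product is an eIF4G relative that does not bind eIF4E. The summits lay 199 bp after the SNX17 start and 95 bp after that of LOC101928053. Which gene such a site acts on was not tested.

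**Figure D3:**
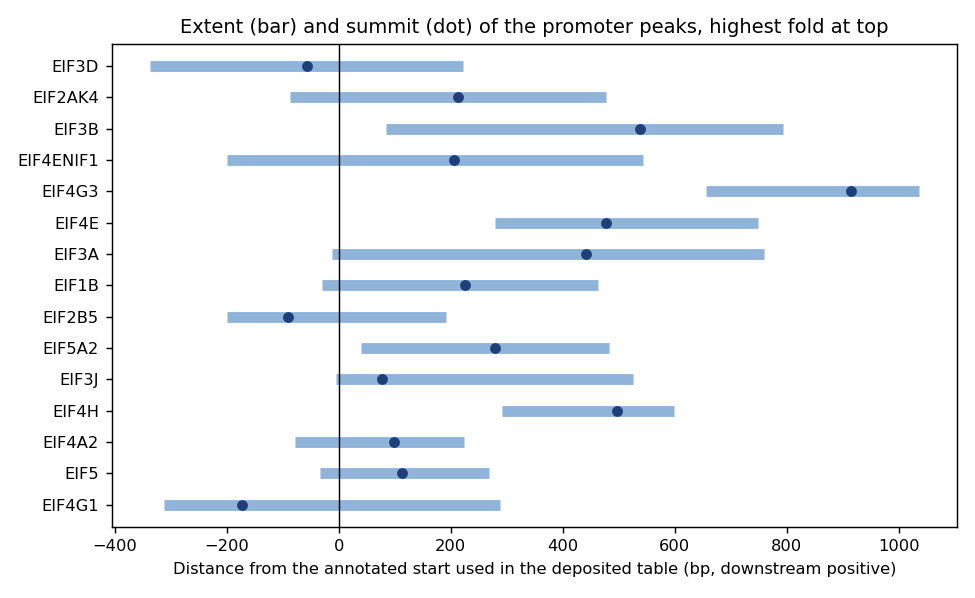
Extent and summit of the 15 promoter peaks assigned to the family, in bp from the annotated start used in the deposited table, downstream positive. Summits run from 172 bp before the start at EIF4G1 to 915 bp after it at EIF4G3, and 12 of 15 lie downstream.

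Most family summits lay just inside the transcribed region. The median summit was 212 bp after the annotated start, beside 179 bp over all promoter peaks, and 12 of 15 lay downstream, beside 69.5%. All 15 peaks were within 1 kb of a start, and 10 overlapped it, beside 60.5% of all promoter peaks. The farthest downstream were EIF4G3 (915 bp), EIF3B (538 bp) and EIF4H (497 bp). The 3 upstream summits were those of EIF3D (57 bp), EIF2B5 (91 bp) and EIF4G1 (172 bp). The choice of start matters for some. The summit of EIF3D was 57 bp before the start in the deposited table and 212 bp after the RefSeq start. That of EIF4A2 was 99 bp after the first and 173 bp before the second.

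Peaks of the family were narrow, 494 bp wide at the median (303 to 773, quartiles 386.5 and 584), beside 573 bp (391 to 922) over all promoter peaks. The widest were EIF3A (773 bp), EIF4ENIF1 (745 bp) and EIF3B (710 bp). The 15 peaks held a median of 17 fragments at the summit (9 to 46), beside 21 (8 to 217) for the 4839 promoter peaks with a p-value above 0. The median background, 2.08, was the same in both sets, and the family range was 1.47 to 4.27.

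**Figure D4:**
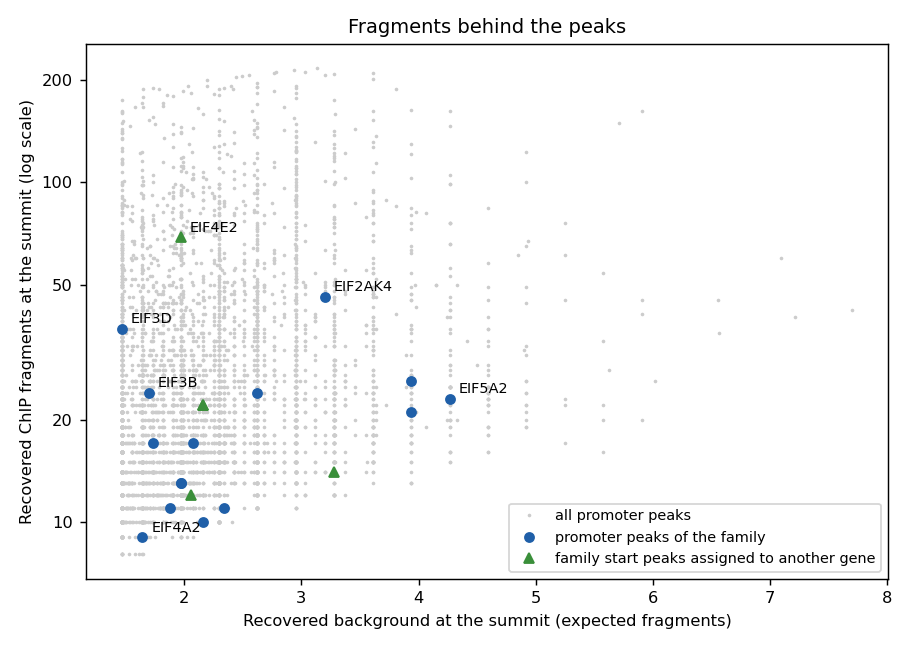
Recovered ChIP fragments (log scale) against recovered background at the summit for all promoter peaks (grey), for the 15 peaks assigned to the family and for the 5 start peaks assigned to another gene. EIF4E2 (69 fragments), EIF2AK4 (46) and EIF3D (37) stand highest in the family, while EIF5A2 has the highest background, 4.27.

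Chromosome 3, singled out after the values were seen, held 5 of the 15 peaks. Of its 7 family genes, EIF1B, EIF5A2, EIF2B5, EIF4G1 and EIF4A2 had a promoter peak, and EIF2A and EIF4E3 had none. Over all protein-coding genes of the chromosome the share was 19.2%. All 5 folds lay under 5, from 3.48 at EIF4G1 to 4.72 at EIF1B. EIF2B5 and EIF4G1 lie close together, with summits 180 kb apart, and EIF4A2 is 2468 kb beyond.

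The promoter windows of the family were rich in G and C, as were those of other genes near a peak. RefSeq windows were found for 46 family genes, 62 windows in all. Of these, 24 had a peak within 3 kb of their start, whichever gene it was assigned to, and 38 had none. The median G and C content was 67.8% with a peak and 63.2% without. Over windows of all protein-coding genes it was 69.3% with a peak (5105 windows) and 60.3% without (17027 windows). GGGCGG, on either strand, stood in 75% of the family windows with a peak and 65.8% of those without, beside 75.7% and 50.5% over protein-coding genes.

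The other motifs were less frequent. CCGGAAG, the core read by ETS factors, stood in 2 of 24 family windows with a peak (8.33%, at EIF4E2 and EIF5A2) and 13 of 38 without (34.2%), beside 14.8% and 12.2% over protein-coding genes. ATTGG, the complement of the CCAAT box, stood in 25% with a peak and 44.7% without, beside 29.6% and 36.2%. TATAAA stood in 1 window of each kind, at EIF4A2 with a peak and at EIF4EBP3 without. GCGCATGCG, the NRF1 motif, likewise stood in 1 of each, at EIF2B5 with a peak and at EIF2S1 without. All were searched on both strands. Several windows belong to 1 gene in some cases, and a match is no evidence that a factor binds.

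CCCGGG was added after the values were seen, because it stood in 88.5% of 61 windows of other genes that held a summit with a fold of at least 25. Windows with a summit of fold under 6 held it in 58.4% of 281. In the family it stood in 7 of 24 windows with a peak within 3 kb (29.2%) and 7 of 38 without (18.4%), beside 41.7% and 20.8% over protein-coding genes. The 7 with a peak were both windows of EIF4E2 and 1 each of EIF4E1B, EIF4G2, EIF2B5, EIF4A2 and EIF5. It was not in the windows nearest the summits of EIF3D, EIF2AK4, EIF3B, EIF4ENIF1, EIF4G3 and EIF4E, the 6 highest promoter peaks assigned to the family. Of the 4 family windows that held a summit, counting the EIF4E2 peak, 3 had it: EIF4E2, EIF5 and EIF4A2. Since 11 of the 14 nearest windows did not hold the summit, the sequence under most family summits was not seen.

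Other genes of translation were described from a list of 37 genes for elongation, termination, poly(A) binding and the control of initiation. Promoter peaks were assigned to 14 of these 37 genes (37.8%), beside the 20.3% of all protein-coding genes. Their median highest fold was 5.01 (range 3.94 to 32.3), beside 4.72 for the initiation factors and 7.39 for all protein-coding genes with a promoter peak. The highest were EEF1B2, which encodes a subunit of the exchange factor for elongation factor eEF1A (32.3, with 102 fragments), and PAIP1, which encodes a partner of the poly(A)-binding protein (29.4, with 96 fragments). GSPT1, the release factor eRF3 gene (8.51), PABPC4, a poly(A)-binding protein gene (8.10), and EEF1A1, which encodes the main elongation factor (6.35), followed. With a fold of at least 5, 7 of 37 remained (18.9%, beside 15.8%). Of the genes in the list that act in the mTOR pathway upstream of the eIF4E-binding inhibitors, RHEB, which encodes the GTPase that activates mTOR, had a promoter peak (fold 4.05, with 15 fragments). MTOR, RPTOR, TSC1 and TSC2 had none. These genes were named after their values were seen. So few genes cannot be told apart from the 20.3% of all protein-coding genes.

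Of the 18 peaks of the family, 7 were in the smaller deposited table of promoter peaks with a fold above 5. They are the same 7 promoter peaks counted above with folds of 5 or more. None of the 18 genes was among the 85 of the unlabelled column in the deposited table of gene identifiers, a column that held 1.64% of all genes with an assigned peak.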

How the data were processed

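Per the labels, 1 Flag ChIP and 1 input library were made from PLC/PRF/5 cells. Tools named in the submitters' processing notes, without roles, are MACS2 2.2.7.1, Bowtie2 2.4.1, deepTools 3.5.0 and SAMtools, with the build hg38. The authors deposited a fold, which is a ratio, a p-value and a q-value for each peak. Distances to the start, a signed score in bp, and gene names are also as deposited. The tool that assigned genes to peaks is not named in these sources.

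Genes were matched by identifier to the RefSeq table of GRCh38.p14, for 5231 of 5246 genes and 18 of 18 members. Fragments and background were solved from fold and p-value under the Poisson model of the peak caller, with 1 added to both in the fold. A whole count within 0.001 on the −log10 p scale came out for 6293 of the 6302 peaks whose p-value was not 0, and for all 18 of the family. Library depth was not used here. The solver was tested on data simulated from the same Poisson model, which checks the solver and not whether the deposited values follow that model. Python 3.11.15, numpy 2.4.6, scipy 1.17.1 and pandas 2.3.3 were used.

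The members, complexes and lists were chosen with earlier results of these data known. All members were named, with the 5 highest of the other translation genes. RHEB, MTOR, RPTOR, TSC1 and TSC2 were named after their values were seen. Alternatives were a fold of at least 5, a −log10 q of at least 10, a 1 kb window, any assigned peak, distance to either gene end, pseudogenes included, near-copies left out, and fragment ratios.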

Additional observations from a re-analysis of the deposited data

How the results depend on the processing

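A fold of at least 5 left 7 initiation factor genes and 7 other translation genes with a promoter peak, and 15.8% of protein-coding genes. A −log10 q of at least 10 left 5, 5 and 11.6%, and raised the family's median fold to 9.27. Both settings keep fewer peaks by construction. The share of protein-coding genes was 19.4% with a 1 kb window, 23.4% with any assigned peak and 23.7% with any peak within 3 kb of either gene end, where the family had 15, 18 and 20 genes. Including pseudogenes, or leaving out near-copies, left the count at 15. Neither set held a gene with a promoter peak, so these settings could not change it. Starts of the RefSeq table, an alternative chosen after the data were seen, gave 19. The family's median rank among promoter peaks (19.2% of peaks lower by fold) was 35.0% by q-value. The median ratio of fragments to background was 6.60. No paired analysis was possible because there was only 1 library of each kind. With 9 to 46 fragments at a summit, most family peaks cannot be ordered by strength.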

Other observations

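The symbol rule also takes in 90 pseudogenes and 4 noncoding RNA genes that the RefSeq table holds beside the protein-coding members. None of these 94 had a peak assigned to it, beside 23.4% of protein-coding genes. A peak lay within 3 kb of either end of 4 of them, beside 23.7%. The share over all pseudogenes and noncoding RNA genes is not given here. Whether these counts are low for such genes therefore cannot be said. EIF2B5-DT, EIF3J-DT and EIF5-DT are noncoding transcripts that run away from the EIF2B5, EIF3J and EIF5 starts, and the peaks near them are those counted for these 3 genes. The EIF2B5 peak overlapped EIF2B5-DT, and its summit lay 314 bp after the start of that transcript and 411 bp before the RefSeq start of EIF2B5. The pseudogene EIF2AK1P1 lay 1770 bp from a peak of fold 4.48 assigned to XRN1. A peak of fold 4.99 assigned to MMP24OS lay 873 bp from an end of EIF6.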
